A study of Mus musculus with 9 samples.

Results

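The response of *Tnfaip2* knockout embryoid bodies (EBs) to supplied palmitic acid (PA) together with its carnitine ester palmitoylcarnitine (PC) was read from RNA sequencing of 6 of the 9 libraries of the series. The 3 libraries of knockout EBs grown with both compounds (KO_PAPC; the pair is written PA/PC) were set against the 3 libraries of knockout EBs grown without it (KO), and no other library entered the fit. All 55471 genes of the count table were open to the comparison, and 17167 of them had enough reads to be tested. EBs are the aggregates that embryonic stem (ES) cells form when they start to differentiate. Both groups carried the genotype *Tnfaip2*-/- in E14 mouse ES cells, formed EBs in hanging drops for 3 days, and were then plated on gelatin for 3 days of differentiation. KO_PAPC EBs received PA and PC at 8 μM each, and KO EBs received the vehicle. According to the methods the knockout was 1 clone with a frameshift in exon 2, and each library was a separate pool of EBs, so the p-values measure the spread between pools of that clone. The comparison asks whether supplying the fatty acid and its carnitine ester changes how knockout EBs differentiate.

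Wild-type EBs with PA/PC were not analysed here, so a response particular to the knockout cannot be told apart from one that any EB would give. The sources also differ on timing. The labels place PA/PC in the differentiation step, whereas the methods describe PA/PC in differentiation medium already while the drops were hanging, when other EBs were kept in ES cell medium. The medium during EB formation and PA/PC can therefore not be told apart.

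Palmitic acid is the main saturated fatty acid that cells make and store. To be burned in mitochondria it is activated with coenzyme A, passed to carnitine by Cpt1 enzymes, carried across the inner membrane as palmitoylcarnitine by *Slc25a20*, and handed back to coenzyme A by *Cpt2* before beta-oxidation begins. *Tnfaip2* belongs to the family of the exocyst subunit *Exoc3*. ES cells leave naive pluripotency through a formative epiblast state before they commit to ectoderm, mesoderm or endoderm, and they rely on glycolysis and oxidative metabolism to a degree that changes along this path.

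The genotype rests on 1 guide RNA against the coding sequence of *Tnfaip2*, shown here because it defines both groups. The capitals mark the NGG motif next to the site, read from the GENCODE M21 transcripts.
Guide: tgttcagtgtcttcaccaaaGGG
The site lay on GRCm38 at chr12:111445173-111445192 on the plus strand, in exon 2 of the 12-exon transcript Tnfaip2-201, with all 20 bases coding. The cut was placed after 246 of the 2073 coding bases of that transcript. A frameshift there need not remove the mRNA, so the read count does not check the genotype. *Tnfaip2* had counts of 5, 6 and 8 in the KO libraries and 25, 14 and 16 in the KO_PAPC libraries, next to 16, 6 and 10 in the wild-type libraries. Every KO_PAPC library lay above every KO library, and edgeR placed the log2 fold change at 1.72 ± 0.363 (standard error, SE) with an adjusted p of 5.49e-05. These counts are low in every library. *Tnfaip2* reached the low-count filter described below only in KO_PAPC, and this largely fixed the direction of the difference.

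Each library held between 27362913 and 28914312 counted reads. KO libraries had a read for 27201 to 27437 genes and KO_PAPC libraries for 24411 to 24490. Replicates were close to each other, with Pearson correlations of log2 levels of 0.9978 to 0.9982 within groups and 0.9433 to 0.9442 between them, and the biological coefficient of variation was 2.32%. Reads of the mitochondrial genome made up 1.96% to 1.98% of KO libraries and 1.26% to 1.34% of KO_PAPC libraries. Median fold changes also differed between chromosomes, as the bar chart by chromosome shows. Genes on chromosomes 8, 13, 17 and 12 had median log2 fold changes of 0.43, 0.38, 0.32 and 0.32, whereas those on the X chromosome and chromosome 11 had medians of -0.48 and -0.36. On the X chromosome 28.9% of tested genes were at least 2-fold lower. The Y-linked gene Usp9y had 26 to 56 counts in KO libraries and 0 to 4 in KO_PAPC libraries, whereas Eif2s3y had 1283 to 1337 and 1915 to 2117. The part of these chromosome differences in the results was not tested, and fold changes relative to the chromosome median are given where they turned a direction.

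**Figure D1:**
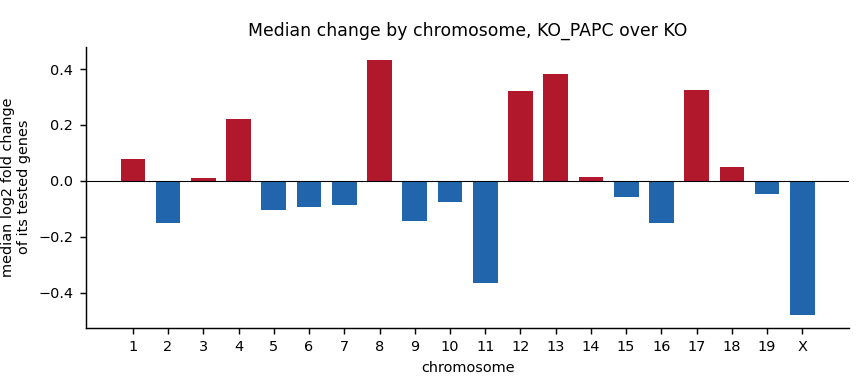
Median log2 fold change (KO_PAPC over KO) of the tested genes on each chromosome, with red bars above 0 and blue bars below 0. Chromosomes 8, 13, 12 and 17 had the highest medians, and the X chromosome and chromosome 11 had the lowest.

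The response was broad. At an adjusted p under 0.05 in the quasi-likelihood test of edgeR, 14047 of the 17167 tested genes differed between KO_PAPC and KO, which is 81.8%. Of these, 6801 were higher with PA/PC (39.6% of tested genes) and 7246 were lower (42.2%). The 2 groups of 3 libraries did not overlap for 14103 genes (82.2%). Most changes were small, and 66.0% of the called genes changed by less than 2-fold. A second test therefore asked for a change of more than 2-fold, and "at least 2-fold" means an adjusted p under 0.05 in that test throughout. It called 3554 genes (20.7%), with 1074 higher (6.26%) and 2480 lower (14.4%), and these shares are the background against which each group of genes is read below. DESeq2 called 13545 genes, and 12608 of them were also called by edgeR, all in the same direction.

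The large changes were unequal in the 2 directions. The 5% of genes that fell furthest had log2 fold changes below -2.98, and the 5% that rose furthest had log2 fold changes above 1.36. Falls dominated among weakly expressed genes and rises among strongly expressed ones. Of 3045 tested genes whose mean normalised CPM (reads of a gene relative to the TMM-scaled size of its library) was under 1, 825 were at least 2-fold lower and 168 higher, whereas of 2693 genes whose mean reached 100 CPM, 72 were lower and 145 higher. Long noncoding RNAs were at least 2-fold lower in 19.1% of 1144 tested genes and higher in 9.53%, compared with 14.4% and 6.06% of 14611 protein-coding genes. The counts by level and by gene type include genes that passed the low-count filter described below in 1 group alone, which largely fixed their direction. The median over all tested genes was -0.02 on the log2 scale. Scaling to library totals in place of TMM factors moved it to -0.18 and the split to 5323 higher and 8677 lower, with 789 and 2895 at least 2-fold, so that the log2 values below would be lower by about as much on that scale.

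**Figure D2:**
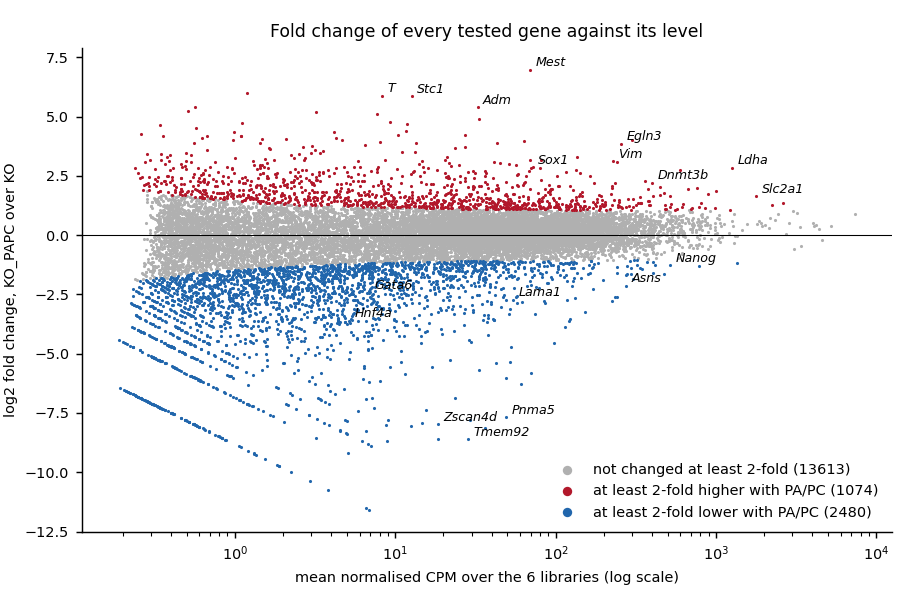
Log2 fold change (KO_PAPC over KO) of each of the 17167 tested genes against its mean normalised CPM on a log axis. Red points are the 1074 genes at least 2-fold higher and blue points the 2480 genes at least 2-fold lower. Points on diagonal lines at the lower left are genes with 0 or few reads in KO_PAPC, whose fitted values depend on the prior count.

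A gene could also pass the filter on low counts through 1 group alone. This was so for 1695 genes that reached the filter only in KO and for 609 that reached it only in KO_PAPC, and the filter largely fixed the direction of such genes. Among the 14599 genes that passed it in both groups, 5.94% were at least 2-fold higher and 9.1% lower, so counts of gene lists with members of the first kind are also given for the members that passed in both groups. At the extreme, 213 genes that averaged 1 CPM or more in KO had 3 counts or fewer in every KO_PAPC library, and 147 of them were protein-coding. Only 5 genes showed the reverse at that threshold, namely *Six2*, *Prrx1*, *Pcdh7*, *Hcrtr2* and *Gm31135*, which were named after their values were seen. *Six2* and *Prrx1* encode homeobox factors of mesenchyme, and *Pcdh7* encodes a protocadherin, with 21.08% of its exon bases covered by other genes. *Pcdh7* had counts of 0, 1 and 2 in KO and 63, 54 and 68 in KO_PAPC. *Prrx1* had counts of 1, 0 and 1 and 25, 26 and 36. Both were nearly silent in KO EBs and low but present in every KO_PAPC library. In bulk samples fewer cells of a type and less RNA per cell cannot be told apart.

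The 15 genes with the largest rises included *Stc1*, *Adm*, *Ndufa4l2* and *Bhlhe40* of the hypoxia list, and *T* and *Fgf8* of the primitive streak list. *Mest*, an imprinted gene expressed from the paternal allele, had 1.09, 1.48 and 0.718 CPM in KO and 141, 135 and 137 CPM in KO_PAPC. This was the largest rise, at 6.97 ± 0.0747 log2 units with an edgeR adjusted p of 1.24e-40. Other genes cover 23.12% of its exon bases, so reads in those bases cannot be assigned to it alone. *Stc1*, which encodes a secreted regulator of calcium and phosphate, had 0.199, 0.506 and 0.588 CPM in KO and 25.3, 25.3 and 24.5 CPM in KO_PAPC. *Bcl11b*, a zinc finger factor of neurons and T cells, rose from 0.874 ± 0.110 to 22.7 ± 1.09 CPM (mean ± SD, n = 3 each), and *Sp8*, a zinc finger factor of the forebrain and limb, rose from 0.651 ± 0.131 to 17.9 ± 0.648 CPM. None of these groups overlapped. Among the rises named here *Stc1* and *T* passed the low-count filter only in KO_PAPC, which largely fixed their direction. *Nxph4*, *Vrtn* and *Car14*, which encode a neurexophilin, a regulator of vertebral number and a carbonic anhydrase, rose by 4.39, 3.99 and 3.86 log2 units.

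The 15 largest falls were of another kind. The list held 5 genes of the two-cell-like state, 4 genes on the X chromosome and a number of predicted genes. *Pnma5*, a gag-derived gene, had 95.7, 99.1 and 99.2 CPM in KO and 0.572, 0.426 and 0.419 CPM in KO_PAPC. *Nxf3*, an X-linked relative of the mRNA export factor Nxf1, had 72.2, 69.1 and 74.7 CPM and 0.305, 0.310 and 0.152 CPM. *Usp26*, an X-linked deubiquitinase gene of testis, had 24.2, 24.6 and 26.4 CPM and 0.0382, 0.155 and 0.0762 CPM. Each was expressed in every KO library and close to 0 in every KO_PAPC library, though 25.70% of the 51-base windows of *Pnma5* recur in other transcripts. Except for *Pnma5*, the 15 genes passed the low-count filter only in KO, which largely fixed their direction. *Gm2016*, *Gm5662* and *Gm8994* had between 9.80 and 18.4 CPM in KO libraries and at most 3 counts in any KO_PAPC library. Of the 51-base windows of *Gm2016* and *Gm5662*, 81.00% and 77.37% also stand in transcripts of other genes. Reads from such windows can map to several places, so the levels of these gene copies are uncertain.

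Genes of the response to low oxygen rose in large part. Hypoxia-inducible factors (HIF) are held low in normal oxygen by prolyl hydroxylases encoded by the Egln genes, and when stable they turn on genes of glycolysis, blood vessel growth and adaptation to low oxygen. Of 41 tested genes of the hypoxia response outside glycolysis, 21 were at least 2-fold higher and 3 at least 2-fold lower (51.2% and 7.32%, against 6.26% and 14.4% of all tested genes), and the median log2 fold change was 1.24 (all tested genes, -0.02). Of the 39 members that passed the filter in both groups, 19 were at least 2-fold higher and 3 lower. The summed level of the list was 1975 to 1984 CPM in KO libraries and 5449 to 5499.9 CPM in KO_PAPC libraries. Oxygen was not measured in these files.

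*Adm*, which encodes the vasodilator adrenomedullin, had 1.39, 1.62 and 1.53 CPM in KO and 64.3, 63.7 and 63.8 CPM in KO_PAPC. *Ndufa4l2*, a HIF target that dampens the respiratory chain, had 2.29, 2.26 and 1.93 CPM and 62.5, 67.4 and 63.6 CPM. *Bhlhe40*, a transcriptional repressor, had 34.7, 34.6 and 35.7 CPM and 565, 568 and 570.1 CPM. For each of these the KO_PAPC libraries lay at least an order of magnitude above the KO libraries, and the log2 fold changes were 5.40 ± 0.0732, 4.90 ± 0.0716 and 4.02 ± 0.0309, with the largest edgeR adjusted p at 1.34e-36. *Ddit4*, whose product restrains mTORC1, rose from 156 ± 6.15 to 1044 ± 46.9 CPM. *Bnip3*, a receptor for the removal of mitochondria, rose from 17.9 ± 0.501 to 70.2 ± 2.22 CPM, though 46.64% of its 51-base windows recur in other transcripts. The hydroxylase genes *Egln3* and *Egln1*, chosen after their values were seen, rose by 3.85 and 2.50 log2 units.

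The list did not move as a block. *Vegfa*, the main growth factor of blood vessels, rose from 50.8 ± 2.34 to 76.7 ± 1.41 CPM, a change of 0.59 ± 0.0380 log2 units that passed the first test and not the 2-fold test. *Car12*, a carbonic anhydrase of the cell surface, went the other way, with 21.8, 19.7 and 20.3 CPM in KO and 6.6, 6.2 and 6.74 CPM in KO_PAPC. This fall exceeded 2-fold, and the groups did not overlap.

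Glycolysis moved upward along most of the pathway. Of 34 tested genes, 23 were higher and 8 lower at any size, and the median was 0.69. By edgeR, 13 were at least 2-fold higher and 0 at least 2-fold lower (38.2% and 0%, against 6.26% and 14.4% of all tested genes). The summed level of the list was 11609.7 to 11812 CPM in KO and 24125 to 25124 CPM in KO_PAPC. *Slc2a1*, the glucose transporter GLUT1, had 886, 870.5 and 849.9 CPM in KO and 2638, 2757 and 2739 CPM in KO_PAPC. *Pfkfb3*, whose product makes the activator of phosphofructokinase, had 11.5, 11.1 and 11.4 CPM and 93.5, 89.2 and 90.4 CPM. *Ldha*, the subunit of lactate dehydrogenase that favours lactate, had 313, 319 and 304 CPM and 2138, 2291 and 2226 CPM. The replicates of each group differed by less than 10% of their mean, and the changes were 1.64 ± 0.0233, 3.01 ± 0.0464 and 2.83 ± 0.0265 log2 units (edgeR adjusted p 5.86e-37, 7.69e-36 and 4.36e-42).

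Enzymes at successive steps, chosen after their values were seen, also rose. *Gpi1* and *Pfkl*, at the second and the third step, rose by 1.72 and 2.01 log2 units. *Tpi1*, *Pgk1* and *Eno1* rose by 1.93, 1.56 and 2.01, and *Pkm*, at the last step, rose by 1.34. Of the 51-base windows of *Eno1*, *Pgk1* and *Pkm*, 25.85%, 53.84% and 25.39% recur in other transcripts, so their levels are uncertain. *Slc16a3*, which exports lactate, rose from 124 ± 4.75 to 597 ± 15.8 CPM. By contrast *Hk1*, a hexokinase, fell from 75 ± 3.92 to 46.3 ± 1.25 CPM and *Pfkfb2* from 11.6 ± 0.877 to 5.79 ± 0.801 CPM. Neither fall passed the 2-fold test.

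Promoters of these genes were searched for the core of the hypoxia response element, ACGTG or GCGTG, on both strands, so that CACGTG counts on each strand. RefSeq windows of GRCm38.p6 from 250 bases before to 50 bases after the start were found for 30 of 41 hypoxia genes and 32 of 34 glycolysis genes. A core stood in a window of 28 hypoxia genes (93.3%) and 28 glycolysis genes (87.5%), in comparison with 46.7% of 27025 genes with a window and 65.2% of 11997 tested genes with one. Among genes at least 2-fold higher in KO_PAPC the share was 62.1%, close to that of tested genes. The 250 bases before the start are shown for the 2 members of each list with the largest rise that held a core, 5′ to 3′ on the strand of the gene, with each core in capitals.
Adm: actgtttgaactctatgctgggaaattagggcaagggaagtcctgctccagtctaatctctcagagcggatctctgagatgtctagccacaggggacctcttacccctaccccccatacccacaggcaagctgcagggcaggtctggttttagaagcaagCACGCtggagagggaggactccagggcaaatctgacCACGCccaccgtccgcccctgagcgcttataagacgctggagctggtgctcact
Egln3: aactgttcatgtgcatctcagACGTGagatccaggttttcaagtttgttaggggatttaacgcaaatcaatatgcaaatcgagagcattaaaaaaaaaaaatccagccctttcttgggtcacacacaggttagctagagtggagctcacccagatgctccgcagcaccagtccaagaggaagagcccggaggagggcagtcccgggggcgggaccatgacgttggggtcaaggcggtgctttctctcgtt
Pfkfb3: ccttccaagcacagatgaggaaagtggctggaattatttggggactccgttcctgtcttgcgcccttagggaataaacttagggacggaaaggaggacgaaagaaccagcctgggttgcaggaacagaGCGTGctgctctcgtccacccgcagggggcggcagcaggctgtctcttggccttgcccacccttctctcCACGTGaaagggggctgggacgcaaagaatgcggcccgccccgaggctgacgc
Ldha: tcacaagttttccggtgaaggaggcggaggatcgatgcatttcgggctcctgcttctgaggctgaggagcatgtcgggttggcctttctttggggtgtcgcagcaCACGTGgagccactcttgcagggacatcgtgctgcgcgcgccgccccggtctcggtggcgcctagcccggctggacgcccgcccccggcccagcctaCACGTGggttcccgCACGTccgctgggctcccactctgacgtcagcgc
The stretches lie at chr7:110627407-110627656 (plus strand), chr12:54203875-54204124 (minus strand), chr2:11502091-11502340 (minus strand) and chr7:46845554-46845803 (plus strand). The cores are marked on either strand, and the *Adm* stretch held 2 of them, the nearer one starting 54 bases before the start. The *Ldha* stretch held 5, of which those starting 145 and 144 and those starting 48 and 47 bases before the start overlap on opposite strands. The match is a description of these letters and says nothing of binding.

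**Figure D3:**
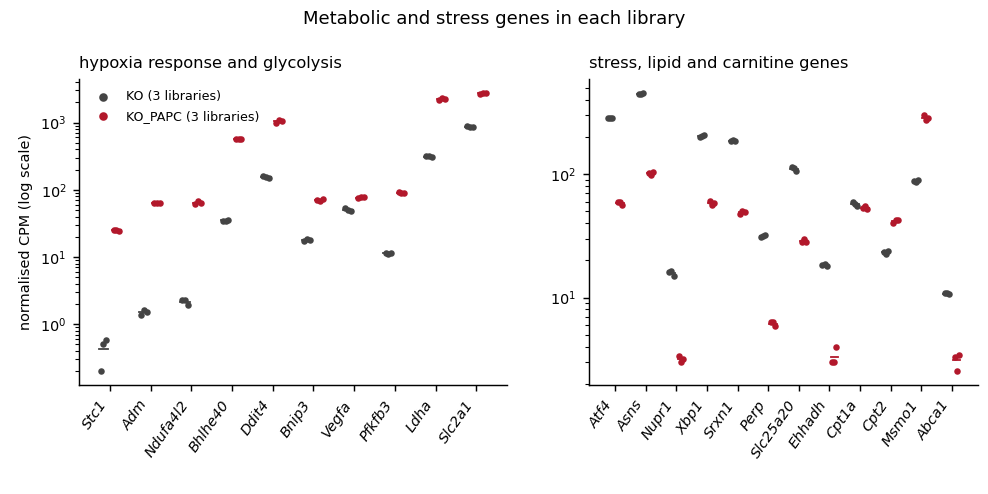
Normalised CPM on a log axis of hypoxia and glycolysis genes (left) and of stress, lipid and carnitine genes (right) in the 3 KO libraries (grey) and the 3 KO_PAPC libraries (red), with a line at each group mean. All 10 genes on the left lay higher with PA/PC, from *Vegfa* at 1.51-fold to *Stc1* at 57.5-fold, whereas *Atf4*, *Asns*, *Xbp1* and *Slc25a20* on the right lay lower. *Stc1* passed the low-count filter only in KO_PAPC, which largely fixed its direction.

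Genes of the integrated stress response moved the other way. ATF4 is the factor that this response turns on when amino acids are short or proteins misfold, and its targets supply amino acids and transfer RNA synthetases. Of 28 tested genes, 20 were lower and 7 higher at any size, 8 were at least 2-fold lower and 2 higher (28.6% and 7.14%, against 14.4% and 6.26%), and the median was -0.49. *Atf4* itself had 285, 287 and 286 CPM in KO and 60, 59.9 and 56.2 CPM in KO_PAPC. *Asns*, which makes asparagine, had 447, 447 and 455 CPM and 103, 99.2 and 104 CPM. *Nupr1*, a small stress-induced chromatin protein, had 16, 16.5 and 14.9 CPM and 3.36, 3.02 and 3.16 CPM. All 3 genes were more than 4-fold lower in every KO_PAPC library, with changes of -2.28 ± 0.0314, -2.14 ± 0.0280 and -2.31 ± 0.0897 log2 units and edgeR adjusted p of 1.83e-37, 4.69e-38 and 2.66e-23. *Trib3* and *Chac1*, chosen after their values were seen, fell by 1.82 and 2.01 log2 units. Among the rises, those of at least 2-fold were of *Ddit4*, which is also a hypoxia gene, and of *Stbd1*, a glycogen-binding protein, which went from 3.03 ± 0.128 to 9.86 ± 0.585 CPM.

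A match to TGATGNAAN, the CCAAT-enhancer and ATF response element, stood in the window of 8 of 21 ATF4 genes with one (38.1%), in comparison with 4.5% of all genes with a window and 2.79% of tested genes. Of the 7 members with a window that were at least 2-fold lower, 4 held a match. The stretches of *Nupr1* and *Asns* are shown, the 2 largest falls that held one, with the match in capitals.
Nupr1: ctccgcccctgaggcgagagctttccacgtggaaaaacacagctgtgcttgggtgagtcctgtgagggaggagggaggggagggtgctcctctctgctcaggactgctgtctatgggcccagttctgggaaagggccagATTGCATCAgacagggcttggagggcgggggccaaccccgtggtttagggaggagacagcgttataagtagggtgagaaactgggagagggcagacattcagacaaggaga
Asns: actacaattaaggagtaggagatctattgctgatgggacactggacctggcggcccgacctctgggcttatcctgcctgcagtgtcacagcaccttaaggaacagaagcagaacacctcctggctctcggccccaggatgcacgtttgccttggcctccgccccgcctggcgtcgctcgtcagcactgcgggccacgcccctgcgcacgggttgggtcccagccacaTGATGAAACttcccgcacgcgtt
They lie at chr7:126625471-126625720 and chr6:7693210-7693459, both on the minus strand. The match of *Nupr1* starts 111 bases and that of *Asns* 23 bases before the start. On both strands TGACNNNGC, the antioxidant response element, stood in 7 of 22 NRF2 genes (31.8%; tested genes, 16.7%), and the peroxisome proliferator response element in 0 of 17 PPAR genes and 13 of all 27025.

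The unfolded protein response of the endoplasmic reticulum was lower in most members but by little. Of 22 tested genes 17 were lower and 4 higher (77.3% and 18.2%, against 42.2% and 39.6% of tested genes), and the median was -0.30. At least 2-fold, 2 were lower (9.09%, against 14.4%). *Xbp1*, the factor spliced by *Ern1*, had 199, 205 and 206 CPM in KO and 60.4, 56.3 and 58.6 CPM in KO_PAPC, and *Ern1*, the sensor, fell from 31.5 ± 0.288 to 13.9 ± 0.610 CPM. *Hspa5*, the chaperone BiP, fell from 881 ± 7.36 to 661 ± 21.3 CPM, a change under 2-fold. Among 26 NRF2 antioxidant genes 5 were at least 2-fold lower and 2 higher (19.2% and 7.69%, against 14.4% and 6.26%), with a median of -0.09. Of these falls, 2 were of genes that passed the filter only in KO. *Srxn1*, a reductase of peroxiredoxins, fell from 187 ± 2.32 to 49.3 ± 1.47 CPM and *Nqo1*, a quinone reductase, from 59.2 ± 0.359 to 25.9 ± 0.419 CPM, whereas *Hmox1*, which degrades haem, rose from 91.8 ± 1.69 to 193 ± 3.52 CPM.

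Targets of p53 were lower as well. Of 25 tested genes 20 were lower and 1 higher (80.0% and 4.0%, against 42.2% and 39.6%), 3 were at least 2-fold lower, and the median was -0.54. *Perp*, a membrane protein of p53-induced apoptosis, had 31, 31.3 and 32.1 CPM in KO and 6.33, 6.28 and 5.83 CPM in KO_PAPC. *Eda2r*, an X-linked receptor, fell from 125 ± 5.63 to 40.6 ± 1.44 CPM. *Cdkn1a*, which encodes the cell cycle inhibitor p21, fell from 95.6 ± 3.28 to 59.3 ± 1.3 CPM, and *Pmaip1*, which encodes Noxa, rose from 31.8 ± 1.55 to 53.6 ± 2.68 CPM. *Trp53* itself changed by -0.18 ± 0.0269 log2 units, and its value relative to the median of chromosome 11 was 0.18.

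Genes that handle palmitate and its carnitine ester showed no common direction. Of the 9 tested genes of the carnitine shuttle, 0 were at least 2-fold higher and 2 at least 2-fold lower by edgeR, 2 were higher and 6 lower at any size, and the median was -0.20. *Slc25a20*, the carnitine-acylcarnitine carrier, had 115, 112 and 106 CPM in KO and 28.3, 29.8 and 28 CPM in KO_PAPC. *Cpt2* had 23.3, 22.7 and 23.8 CPM and 40.1, 42.2 and 42.7 CPM. *Cpt1a* had 59.2, 57.6 and 55.4 CPM and 52.8, 55.1 and 52.4 CPM. The carrier fell by 1.95 log2 units (SE 0.0407), *Cpt2* rose by 0.84 ± 0.0472, and *Cpt1a* changed by -0.10 ± 0.0390 (edgeR adjusted p 0.0155). The call of *Cpt1a* was lost with DESeq2, without the filter, and when 1 library was left out, namely replicate 1 of KO or either of replicates 1 and 3 of KO_PAPC (-0.08 in each case). *Tmlhe*, an enzyme of carnitine synthesis, fell from 5.48 ± 0.687 to 1.51 ± 0.0517 CPM.

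Of 30 genes of fatty acid activation and beta-oxidation, 13 were higher and 14 lower, 2 were at least 2-fold lower and 0 at least 2-fold higher by edgeR. The median of 0.05 turned to -0.12 under library totals and to -0.12 relative to chromosome medians. *Ehhadh*, a peroxisomal enzyme of beta-oxidation, fell from 18.4 ± 0.343 to 3.32 ± 0.556 CPM and *Acadvl*, the mitochondrial dehydrogenase for very long chains, from 27.9 ± 0.163 to 11.2 ± 0.695 CPM, though other genes cover 42.85% of its exon bases. *Acadl*, the long-chain dehydrogenase, rose from 40.6 ± 2.07 to 80.6 ± 0.859 CPM, and *Eci1*, an enoyl isomerase, from 17.1 ± 0.419 to 35.2 ± 1.01 CPM. Of 16 tested PPAR receptors and targets, 8 were at least 2-fold lower and 2 higher (50.0% and 12.5%), and 3 of the 16 passed the low-count filter only in KO. Without these 3 the numbers were 5 lower and 2 higher, with a median of 0.11. *Pdk4*, a kinase that spares glucose and is induced by fatty acids in many tissues, had 14.2, 15.1 and 15.6 CPM in KO and 5.11, 4.69 and 4.72 CPM in KO_PAPC. *Fabp3*, a fatty acid binding protein with 36.87% of its windows recurring in other transcripts, fell from 81 ± 2.76 to 13.2 ± 1.06 CPM. *Angptl4* rose from 13.2 ± 0.718 to 17.6 ± 0.940 CPM, and *Vldlr*, a receptor that takes up lipoproteins, from 4.35 ± 0.442 to 24.4 ± 0.889 CPM.

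Storage and synthesis of lipids changed gene by gene. Among 31 genes of lipid droplets and triacylglycerol 13 were higher and 13 lower, with a median of -0.07 (13, 10 and 0.02 among the 28 that passed the filter in both groups). *Plin2*, the coat protein that marks lipid droplets, had 26.6, 26.6 and 25.7 CPM in KO and 35.4, 38.2 and 36.3 CPM in KO_PAPC, a rise of 0.48 ± 0.0475 log2 units. *Hilpda*, an inhibitor of lipolysis that is also a hypoxia gene, rose from 12.4 ± 0.0635 to 30.3 ± 1.19 CPM and *Mogat2*, an acyltransferase of monoacylglycerol, from 4.46 ± 0.296 to 12.8 ± 0.188 CPM. *Lpin3*, a phosphatidate phosphatase, fell from 22.3 ± 0.279 to 10.1 ± 0.778 CPM. Of 25 genes of fatty acid synthesis, elongation and desaturation, 14 were higher and 8 lower, and the median of 0.13 turned to -0.03 under library totals. *Scd2*, a desaturase of palmitate and stearate, rose from 314 ± 7.05 to 722 ± 1.52 CPM. Of 26 ceramide and sphingolipid genes 16 were lower and 10 higher, with 2 at least 2-fold in each direction. Both falls of at least 2-fold were of genes that passed the filter only in KO. *Sptlc2*, a subunit of the enzyme that joins palmitate to serine, fell from 93 ± 0.609 to 73.8 ± 3.01 CPM, a change of -0.33 ± 0.0344 log2 units.

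Most genes of cholesterol synthesis rose. Of 30 genes of cholesterol synthesis and uptake 25 were higher and 4 lower (83.3% and 13.3%, against 39.6% and 42.2%), 6 were at least 2-fold higher and 3 lower, and the median was 0.71. *Msmo1*, a methylsterol oxidase, had 88.1, 86.3 and 89.6 CPM in KO and 299, 275 and 287 CPM in KO_PAPC. All libraries of KO_PAPC lay above those of KO, with a change of 1.71 ± 0.0314 log2 units. *Hmgcs1* and *Cyp51*, enzymes of the pathway chosen after their values were seen, rose by 1.36 and 1.41. The genes that fell at least 2-fold included *Abca1* and *Abcg1*, transporters that export cholesterol, which went from 10.7 ± 0.118 to 3.09 ± 0.497 and from 17.8 ± 0.412 to 5.0 ± 0.654 CPM.

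Nuclear genes of the respiratory chain had a median change close to 0, with 2 of 81 at least 2-fold higher and 1 lower (79 passed the filter in both groups, with the same numbers), and a median of 0.06 that turned to -0.10 under library totals. Of 9 tested genes of the mitochondrial genome 7 were lower and 2 higher. The mRNAs *mt-Nd5* and *mt-Nd2*, subunits of complex I, fell from 1112 ± 24.3 to 446 ± 19.4 and from 1894 ± 23.5 to 828 ± 34 CPM, whereas the ribosomal RNAs *mt-Rnr2* and *mt-Rnr1* rose from 475 ± 14.9 to 743 ± 44.4 and from 308 ± 11.5 to 435 ± 14.6 CPM. Cytosolic ribosomal protein genes were higher in 77 of 85 cases and lower in 4 (90.6% and 4.71%, against 39.6% and 42.2% of tested genes), with a median of 0.54. At least 2-fold, 3 were higher (3.53%, against 6.26%). Their summed level went from 24014 to 24861 CPM in KO to 35349.7 to 37215 CPM in KO_PAPC. Many of these genes have processed copies elsewhere, which makes their levels uncertain. For *Rpl13a*, which rose from 102 ± 2.05 to 288 ± 7.21 CPM, the shared 51-base windows made up 23.80%.

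Genes of S phase and mitosis were higher in 25 of 31 cases and lower in 4 (80.6% and 12.9%, against 39.6% and 42.2% of tested genes), with a median of 0.45. At least 2-fold, 2 were higher, a share of 6.45% that was close to the 6.26% of all tested genes. *Mki67*, a marker of cycling cells, rose from 229 ± 2.81 to 331 ± 13 CPM, *Cdc20*, an activator of the anaphase complex, from 94.3 ± 3.68 to 291 ± 9.97 CPM, and *Cdt1*, a licensing factor, from 149.7 ± 1.42 to 339 ± 14.8 CPM. The 22 genes of G1 went both ways, with 12 higher and 10 lower and a median of 0.35. Of these, 4 were at least 2-fold higher and 3 lower (18.2% and 13.6%, against 6.26% and 14.4% of tested genes). *Cdkn2a*, which encodes the cell cycle inhibitors p16 and Arf, had 30.3, 29.2 and 30 CPM in KO and 1.72, 1.7 and 1.94 CPM in KO_PAPC. *Cdk6*, a G1 kinase, had 8.18, 7.25 and 7.38 CPM and 39.2, 39.2 and 38.3 CPM, and *Ccnd2*, a D-type cyclin, 10.7, 11.2 and 11.7 and 34.3, 33.4 and 35.7 CPM. The inhibitor fell 16.6-fold, and the kinase and the cyclin rose 5.11-fold and 3.07-fold. Of 24 genes of serine, threonine and one-carbon metabolism, 4 were at least 2-fold lower (1 of which passed the filter only in KO) and 1 higher. These were 16.7% and 4.17%, against 14.4% and 6.26% of tested genes. *Tdh*, the threonine dehydrogenase on which mouse ES cells depend, fell from 395 ± 2.98 to 187 ± 5.37 CPM.

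The EBs of both groups expressed core pluripotency genes. *Pou5f1*, which encodes Oct4, had 667, 664 and 641 CPM in KO and 866, 914 and 901 CPM in KO_PAPC. *Sox2* had 712, 721 and 716 CPM and 515, 505 and 515 CPM. *Pou5f1* rose by 0.44 ± 0.0245 and *Sox2* fell by 0.48 log2 units, both under 2-fold. Of 12 tested genes of this list 7 were higher and 4 lower, 2 were at least 2-fold higher and 1 lower, and the median was 0.44. *Lin28a*, which blocks let-7 processing, rose from 155 ± 2.62 to 599 ± 5.3 CPM and *Tdgf1*, the *Nodal* coreceptor Cripto, from 281 ± 2.93 to 688 ± 12.9 CPM. *Dppa2* fell from 114 ± 3.37 to 41.6 ± 3.15 CPM and *Dppa4* from 90.1 ± 4.21 to 61.5 ± 0.912 CPM. Of their 51-base windows, 28.87% and 30.74% recur in other transcripts.

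Nearly all naive pluripotency genes fell. Of 15 tested genes, 14 were lower and 0 higher by edgeR at an adjusted p under 0.05, 11 were at least 2-fold lower (73.3%, against 14.4% of tested genes), and the median was -1.28. *Nanog*, a core factor of the naive state, had 723, 742 and 741 CPM in KO and 312, 303 and 298 CPM in KO_PAPC. *Dppa3*, also known as Stella, had 34.3, 36.6 and 32.9 CPM and 4.16, 3.64 and 3.73 CPM. *Tcl1*, a cofactor of Akt, had 72.2, 70.6 and 68.3 CPM and 9.19, 8.99 and 9.94 CPM. The groups did not overlap for any of the 3 genes. *Tfcp2l1*, *Zfp42* and *Esrrb*, chosen after their values were seen, fell by 2.66, 1.85 and 1.05 log2 units.

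Formative and primed epiblast genes rose in turn, with 8 of 13 at least 2-fold higher and 1 lower (61.5% and 7.69%) and a median of 1.47. *Fgf5*, the usual marker of the formative epiblast, had 23.9, 23.2 and 24.6 CPM in KO and 68.5, 65.6 and 64.3 CPM in KO_PAPC. *Pou3f1*, which encodes Oct6, had 16.6, 17 and 18.2 CPM and 82, 78.2 and 81.6 CPM. *Sall2* had 34.8, 34.4 and 36.8 CPM and 239, 234 and 232 CPM. These rises were 2.76-fold, 4.67-fold and 6.64-fold. *Otx2* rose from 179 ± 4.09 to 299 ± 5.47 CPM, under 2-fold, and *Grhl2*, an epithelial factor of the formative state, fell from 67.4 ± 1.34 to 20 ± 1.32 CPM. The 8 rises include both de novo methyltransferase genes, of which *Dnmt3b* went from 142 ± 1.16 to 657 ± 10.5 CPM and *Dnmt3a* from 198 ± 2.25 to 615 ± 6.12 CPM. In the list of DNA methylation genes, the maintenance gene *Dnmt1* had 366 ± 3.4 and 364 ± 14.8 CPM (edgeR adjusted p 0.842) and *Tet2*, which oxidises methylcytosine, fell from 136 ± 0.979 to 88 ± 1.86 CPM.

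The two-cell-like state is a rare state of ES cell cultures that shares transcripts with the embryo at genome activation, such as the Zscan4 cluster. All 24 tested genes were at least 2-fold lower, and all 24 had passed the low-count filter only in the KO libraries, so their direction was fixed by the filter. The summed level of the 25 listed genes was 247 to 253 CPM in KO libraries and 0.876 to 1.20 CPM in KO_PAPC libraries. *Zscan4d*, of the Zscan4 cluster, had 34.7, 37.3 and 37.8 CPM in KO and 0.229, 0.155 and 0.0381 CPM in KO_PAPC. *Tmem92* had 56.1, 59.2 and 54.3 CPM and 0.114, 0.232 and 0.0762 CPM. *Usp17lb* had counts of 230, 225 and 235 and 0, 0 and 0, which makes it at least 66.3-fold lower against 3 counts per library. With the 7 genes that had 0 reads in all KO_PAPC libraries set to that limit, the median log2 fold change was -6.43 in place of the fitted -7.81. Near-identical copies share many of these reads (49.10% of the windows of *Zscan4d* and 21.01% of those of *Usp17lb*), so the levels are uncertain.

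Most germline genes fell, with 15 of 25 at least 2-fold lower and 1 higher (60.0% and 4.0%). Among the 22 members that passed the filter in both groups, 12 were lower and 1 higher. *Dazl*, an RNA-binding protein of germ cells, had 58.8, 67.6 and 68.4 CPM in KO and 6.14, 6.43 and 6.32 CPM in KO_PAPC. *Rhox9*, an X-linked homeobox gene, had 21.9, 21.4 and 20.7 CPM and 0.572, 0.542 and 0.457 CPM. *Syce2*, part of the synaptonemal complex, rose from 47.2 ± 1.41 to 197 ± 5.34 CPM. Among 31 Polycomb genes 4 were at least 2-fold lower (1 of which passed the filter only in KO) and 0 higher by edgeR, while 12 were higher and 17 lower at any size. The share at least 2-fold lower was 12.9%, against 14.4% of tested genes. At any size 38.7% were higher and 54.8% lower, against 39.6% and 42.2%. *Scml2*, an X-linked member, had 51.5, 56.7 and 57.9 CPM and 2.63, 2.05 and 3.01 CPM, and *Phf19*, a subunit that guides the complex to chromatin, fell from 76.4 ± 2.9 to 6.31 ± 0.421 CPM, whereas the methyltransferase gene *Ezh2* rose from 192 ± 1.53 to 349 ± 3.02 CPM.

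Imprinted genes split in both directions, with 8 of 32 at least 2-fold higher and 5 lower. Of the 5 falls, 3 were of genes that passed the filter only in KO, and among the 29 that passed in both groups 8 were higher and 2 lower. Besides *Mest*, *Nnat*, a small membrane protein of neurons, rose from 9.75 ± 0.616 to 62.8 ± 3.58 CPM. *Meg3* and *Rian*, noncoding RNAs of one maternally expressed cluster on chromosome 12, and *Grb10*, an inhibitor of insulin signalling, were chosen after their values were seen and rose by 1.51, 1.52 and 1.77 log2 units. *Peg10* and its neighbour *Sgce* on chromosome 6, chosen in the same way, had counts of 140, 134 and 121 in KO against 2, 3 and 5 in KO_PAPC and 24, 21 and 16 against 0, 0 and 1.

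**Figure D4:**
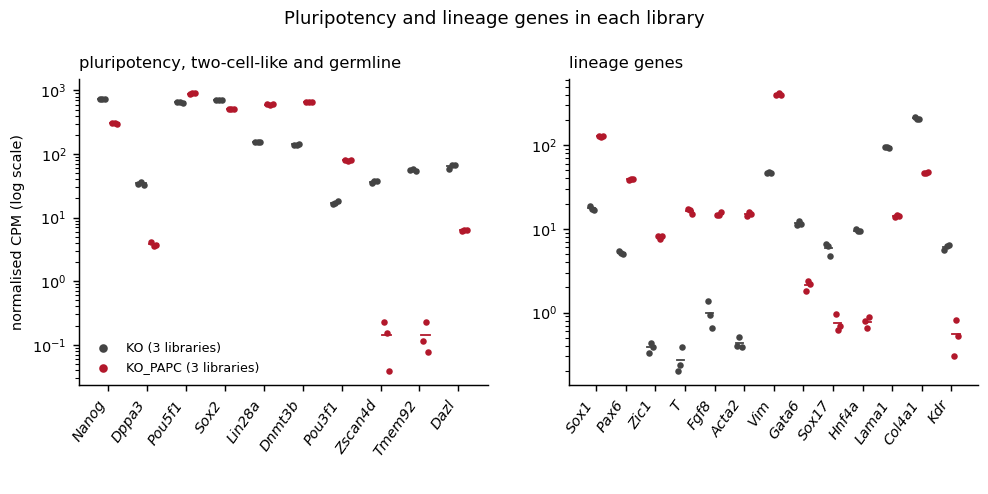
Normalised CPM on a log axis of pluripotency, two-cell-like and germline genes (left) and of lineage genes (right) in the 3 KO libraries (grey) and the 3 KO_PAPC libraries (red), with a line at each group mean. *Nanog*, *Dppa3*, *Zscan4d*, *Tmem92*, *Dazl*, *Gata6*, *Sox17*, *Hnf4a*, *Lama1*, *Col4a1* and *Kdr* lay lower with PA/PC, and *Dnmt3b*, *Sox1*, *Pax6*, *Zic1*, *Fgf8*, *Acta2* and *Vim* lay higher. *Zscan4d*, *Tmem92* and *Kdr* passed the low-count filter only in KO, and *Zic1* and *T* only in KO_PAPC, which largely fixed their directions.

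Most neuroectoderm genes rose. Of 32 tested genes, 21 were at least 2-fold higher and 1 lower (65.6% and 3.12%), and the median was 2.22. Because 12 of the 32 passed the low-count filter only in KO_PAPC, the 20 that passed in both groups are given apart, and of these 10 were at least 2-fold higher and 1 lower, with a median of 1.05. *Sox1*, the first marker of the neural plate, had 18.7, 17.2 and 16.7 CPM in KO and 127, 126 and 128 CPM in KO_PAPC. *Pax6*, a factor of neural progenitors, had 5.46, 5.09 and 4.99 CPM and 38.7, 39.2 and 39.5 CPM. *Zic1*, a factor of the dorsal neural tube, had 0.331, 0.439 and 0.392 CPM and 8.13, 7.48 and 8.23 CPM. *Sox1* and *Pax6* rose by 2.86 ± 0.0416 and 2.92 ± 0.0636 log2 units (edgeR adjusted p 1.19e-36 and 3.47e-31), and the libraries of a group stood close together. *Zic1* rose by 4.34 ± 0.165 log2 units, but it passed the filter only in KO_PAPC, which largely fixed its direction. *Nes*, the intermediate filament of neural stem cells, rose from 14.3 ± 0.825 to 50.8 ± 0.804 CPM, and *Sox11*, chosen after its values were seen, from 25.4 ± 1.31 to 246 ± 4.05 CPM. *Sox21*, which favours differentiation of progenitors, fell from 40.8 ± 0.682 to 5.08 ± 0.481 CPM. *Tubb3*, a tubulin of neurons, had a log2 fold change of 0.07 that did not pass, and *Map2*, a dendrite protein, one of 0.38 that did (both chosen after their values were seen).

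Primitive streak and mesoderm genes split. Of 24 tested genes 7 were at least 2-fold higher and 8 lower. Because 6 of them passed the filter only in KO and 5 only in KO_PAPC, the 13 that passed in both groups are given apart, with 4 higher and 3 lower. *T*, which encodes Brachyury and marks the primitive streak, had 0.199, 0.236 and 0.392 CPM in KO and 17.5, 16.6 and 15.1 CPM in KO_PAPC, a rise of 5.87 ± 0.154 log2 units. *T* passed the filter only in KO_PAPC, which largely fixed its direction. *Fgf8*, also of the streak, had 1.36, 0.944 and 0.653 CPM and 14.8, 14.8 and 15.8 CPM. *Kdr*, the receptor Flk1 of blood and vessel progenitors, had 5.53, 6.27 and 6.4 CPM and 0.305, 0.814 and 0.533 CPM. *Kdr* passed the filter only in KO, which largely fixed its direction. *Pdgfra*, a receptor of mesoderm and of primitive endoderm, fell from 12.6 ± 0.934 to 2.48 ± 0.290 CPM. *Wnt3* and *Evx1*, chosen after their values were seen, rose by 3.70 and 4.07 log2 units. *Eomes*, of streak and trophoblast, rose from 21.3 ± 0.240 to 30.8 ± 1.37 CPM.

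Blood and endothelial markers fell more often than they rose. Of 13 tested blood and endothelial markers 8 were at least 2-fold lower and 0 higher by edgeR (4 were higher at any size), 4 of the 13 had passed the filter only in KO and 2 only in KO_PAPC, 4 of the other 7 were at least 2-fold lower, and the summed level of the list went from 202 to 209 CPM in KO to 91.5 to 94.5 CPM in KO_PAPC. *Pecam1*, an endothelial adhesion protein also found on ES cells, carried most of this sum, with 131 ± 1.99 and 28.1 ± 1.38 CPM, and the embryonic globin genes *Hbb-bh1*, *Hba-x* and *Hbb-y* were at 0 to 0.0979 CPM in every library, at or under the level of 3 counts. Of 12 cardiac and smooth muscle markers 5 were at least 2-fold higher and 5 lower, and their median of 0.14 turned to -0.03 under library totals. Of these 12, 3 passed the filter only in KO and 2 only in KO_PAPC, and among the other 7 there were 3 higher and 2 lower. *Acta2* and *Cnn1*, actin and calponin of smooth muscle, rose from 0.432 ± 0.0644 to 15 ± 0.827 and from 1.91 ± 0.525 to 12.3 ± 0.165 CPM, while *Myl4*, the atrial myosin light chain, fell from 12.9 ± 0.559 to 0.665 ± 0.182 CPM and the cardiac troponin gene *Tnnt2* had counts of 29, 20 and 21 and 0, 3 and 0. Of 10 tested fibroblast markers 2 were at least 2-fold higher, both of which passed the filter only in KO_PAPC, and 0 lower by edgeR, 4 were higher and 3 lower at any size, and *Col1a1* had 3.07 ± 0.231 and 3.7 ± 0.562 CPM (edgeR adjusted p 0.0578; it passed without KO replicate 2 or KO_PAPC replicate 2, at 0.33 and 0.40 log2 units).

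Most endoderm genes fell. Of 27 tested genes of primitive and visceral endoderm 21 were at least 2-fold lower and 1 higher (77.8% and 3.70%, against 14.4% and 6.26%), and the median was -2.47 (20 lower and 1 higher among the 26 that passed the filter in both groups). *Gata6*, which specifies primitive endoderm, had 11, 12.4 and 11.4 CPM in KO and 1.79, 2.4 and 2.17 CPM in KO_PAPC. *Sox17*, a factor of endoderm, had 6.52, 6.24 and 4.8 CPM and 0.954, 0.620 and 0.685 CPM. *Hnf4a*, a factor of visceral endoderm and liver, had 9.84, 9.41 and 9.43 CPM and 0.801, 0.659 and 0.876 CPM. Each fell by more than 4-fold with no overlap, at -2.44 ± 0.109, -2.95 ± 0.175 and -3.61 ± 0.137 log2 units (edgeR adjusted p 1.92e-21, 1.18e-17 and 1.33e-23). *Cubn*, a receptor of absorptive visceral endoderm, fell from 93.3 ± 2.14 to 9.29 ± 0.209 CPM, and *Gata4* and *Apob*, chosen after their values were seen, by 2.85 and 2.99 log2 units. The exception was *Fst*, the activin antagonist follistatin, which rose from 4.1 ± 0.283 to 36.9 ± 1.32 CPM.

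Basement membrane genes, which parietal endoderm makes in large amounts, fell alongside. Of 25 tested genes 11 were at least 2-fold lower and 1 higher (44.0% and 4.0%), and among the 22 that passed the filter in both groups the numbers were 8 and 1. *Lama1* had 95.6, 95.5 and 93.1 CPM in KO and 14, 14.7 and 14.3 CPM in KO_PAPC, and *Col4a1* had 214, 207 and 205 CPM and 45.9, 46.6 and 47.6 CPM. These encode a laminin and a type IV collagen chain, and they fell 6.62-fold and 4.47-fold. *P4ha1*, a collagen prolyl hydroxylase that is also a hypoxia gene, rose from 79.7 ± 2.09 to 196 ± 0.597 CPM, and *Lama5* rose from 82.8 ± 0.708 to 167 ± 3.02 CPM.

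Neural crest and surface ectoderm genes moved in both directions, with 3 of 16 at least 2-fold higher and 5 lower (2 and 3 among the 12 that passed the filter in both groups). *Foxd3* and *Msx1*, factors of crest and neural plate border, rose from 8.51 ± 0.205 to 45.8 ± 3.21 and from 1.2 ± 0.156 to 10.5 ± 0.272 CPM. *Tfap2c*, which is shared by surface ectoderm, trophoblast and germ cells, had 276, 282 and 276 CPM in KO and 28.2, 29.1 and 30 CPM in KO_PAPC, and *Ngfr*, a neurotrophin receptor, fell from 71.3 ± 1.48 to 12.4 ± 0.777 CPM. Of 11 tested trophoblast markers 4 were at least 2-fold lower, all of which had passed the filter only in KO, and 2 were higher. The keratin genes *Krt8* and *Krt18* fell by 0.71 and 0.40 log2 units (29.45% of the windows of *Krt8* recur elsewhere), and *Cdx2*, a factor of trophectoderm and tail bud, rose from 0.474 ± 0.127 to 1.77 ± 0.248 CPM.

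*Vim*, which encodes the intermediate filament vimentin of mesenchymal and neural progenitor cells, had 47.1, 48 and 46.2 CPM in KO and 402, 419.5 and 399.9 CPM in KO_PAPC, a rise of 3.11 ± 0.0315 log2 units (edgeR adjusted p 3.27e-41). The keratin genes *Krt8*, *Krt18* and *Krt42* fell, the last from 10.4 ± 0.627 to 0.549 ± 0.131 CPM, and the 17 genes of intermediate filaments and lamins had a median of -0.01 (0.02 with no filter and 0.07 relative to chromosome medians), with 4 at least 2-fold higher and 3 lower, 1 of which passed the filter only in KO. Among 23 genes of cadherins and the epithelial-mesenchymal switch 4 were at least 2-fold higher and 4 lower. *Cdh2*, N-cadherin, had 7.39, 7.29 and 8.26 CPM and 42.9, 41.6 and 44.2 CPM, and *Cdh1*, E-cadherin, had 249, 251 and 249 CPM and 373, 372 and 369.7 CPM. The rise of *Cdh2* was 5.61-fold and that of *Cdh1* 1.49-fold, so both cadherins were higher with PA/PC. *Zeb2*, a repressor of epithelial genes, rose from 4.74 ± 0.524 to 31.8 ± 2.5 CPM and *Cldn4*, a claudin of tight junctions, fell from 86 ± 2.16 to 12.8 ± 0.923 CPM.

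Among signalling pathways Wnt and FGF genes rose more often than they fell. Of 44 tested Wnt genes 14 were at least 2-fold higher and 2 lower (31.8% and 4.55%), and the median was 0.77. Among the 38 that passed the filter in both groups 10 were higher and 1 lower (26.3% and 2.63%), with a median of 0.58. *Sp5*, a direct target of Wnt and beta-catenin, had 0.166, 0.101 and 0.229 CPM in KO and 5.99, 6.55 and 6.25 CPM in KO_PAPC. *Axin2*, the most used reporter of Wnt activity, had 22.1, 22.5 and 23.1 CPM and 18.3, 17.9 and 17.7 CPM. *Sp5* rose by 5.20 ± 0.211 log2 units, but it passed the filter only in KO_PAPC, which largely fixed its direction. *Axin2* changed by -0.33 ± 0.0550 and stood at 0.04 relative to the median of chromosome 11. The ligand gene *Wnt7b* had 14.2, 13.1 and 15.1 CPM and 0.114, 0.0775 and 0.152 CPM, and *Notum*, a secreted inhibitor of Wnt, fell from 53.4 ± 2.19 to 6.82 ± 0.732 CPM, with 38.12% of its exon bases covered by other genes. *Wnt7b* passed the filter only in KO, which largely fixed its direction. Of 23 FGF and ERK genes 8 were at least 2-fold higher and 2 lower. The feedback gene *Spry4* rose from 122 ± 1.4 to 184 ± 1.78 CPM, under 2-fold, *Dusp6* and the ligand gene *Fgf15*, chosen after their values were seen, rose 2.73-fold and 9.09-fold (25.74% of the exon bases of *Fgf15* are covered by other genes), and *Fgfbp1*, a carrier of FGF proteins, fell from 22 ± 0.845 to 1.6 ± 0.109 CPM.

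In the *Nodal* list 5 of 18 genes were at least 2-fold higher and 2 lower, 1 of the latter having passed the filter only in KO. *Nodal* rose from 82.1 ± 2.75 to 124 ± 4.69 CPM, under 2-fold, and *Lefty1*, an antagonist chosen after its values were seen, from 89.9 ± 3.41 to 359 ± 5.06 CPM. Of 25 BMP genes 7 were at least 2-fold higher and 6 lower, or 6 and 4 among the 22 that passed the filter in both groups. *Bmp4* had 30.6, 32 and 28 CPM in KO and 5.49, 5.19 and 5.64 CPM in KO_PAPC. *Id2*, a BMP target in many cells, had 13.8, 13.8 and 14.1 CPM and 128, 123 and 120.1 CPM, and *Id1* had 26.2, 26.2 and 23.7 CPM and 64.4, 73.1 and 67.7 CPM. The ligand fell 5.54-fold while *Id2*, *Id1* and *Id3* (the last chosen after its values were seen) rose 8.91-fold, 2.69-fold and 3.12-fold, and *Id4* fell 7.77-fold.

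Hedgehog genes included *Ptch1* and *Gas1*, a receptor that is also a target and a coreceptor, which rose from 41 ± 2.6 to 170.4 ± 6.63 and from 3.04 ± 0.366 to 26.2 ± 0.620 CPM, with 4 of 13 at least 2-fold higher and 2 lower (4 and 1 among the 12 that passed the filter in both groups). Among 17 Notch genes 12 were higher and 4 lower (11 and 4 of the 16 that passed in both groups), and the target *Hes1* rose from 33 ± 0.306 to 101 ± 2.22 CPM while the receptor gene *Notch1* fell from 45.8 ± 2.43 to 17 ± 1.76 CPM. Among 21 genes of retinoic acid 5 were at least 2-fold higher and 4 lower, or 5 and 3 of the 19 that passed in both groups. *Aldh1a2*, which makes retinoic acid, had 12.4, 13.5 and 13 CPM in KO and 0.649, 0.620 and 0.990 CPM in KO_PAPC, and *Stra8*, a target and meiosis gene, fell from 75.4 ± 2.11 to 6.55 ± 0.643 CPM. *Crabp2*, a binding protein of retinoic acid, rose from 9.81 ± 0.445 to 80.1 ± 2.34 CPM. In the LIF list of 12 genes, *Lif*, the cytokine that holds mouse ES cells in the naive state, fell from 11.7 ± 0.906 to 4.3 ± 0.308 CPM while *Socs3*, a target of STAT3, rose from 5.68 ± 0.533 to 25.4 ± 0.927 CPM. The list median of -0.17 stood at 0.04 relative to chromosome medians.

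Most immediate early genes rose, with 10 of 21 at least 2-fold higher and 2 lower (47.6% and 9.52%) and a median of 1.03 (9 and 2 of the 20 that passed the filter in both groups). *Fos*, a subunit of AP-1, had 2.91, 2.83 and 2.64 CPM in KO and 53.8, 52.7 and 48.5 CPM in KO_PAPC. *Egr1*, a zinc finger factor induced by ERK, had 19.5, 19.4 and 19.9 CPM and 114, 108 and 111 CPM. These rises were 18.5-fold and 5.66-fold. *Atf3* and *Nr4a1* fell from 6.11 ± 0.482 to 1.59 ± 0.438 and from 59.7 ± 1.56 to 23.6 ± 1.78 CPM. The 16 YAP genes held 3 that were at least 2-fold higher, 1 of which passed the filter only in KO_PAPC, and 1 that was lower, and their median of 0.08 turned to -0.09 under library totals.

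Inflammatory genes were lower on balance. Of 17 tested genes of NF-kB and TNF 11 were lower and 4 higher (64.7% and 23.5%, against 42.2% and 39.6% of tested genes), with a median of -0.66. Large falls were no more frequent than among all tested genes, with 2 at least 2-fold lower (11.8%, against 14.4%). Both of the falls of at least 2-fold were of genes that passed the filter only in KO, and the other 15 genes had a median of -0.49. *Nfkbia*, the inhibitor that NF-kB induces, fell from 72.7 ± 3.1 to 42.6 ± 1.8 CPM, whereas *Rela*, a subunit of NF-kB, rose from 27.8 ± 0.363 to 40.6 ± 1.27 CPM. Of 22 interferon genes 7 were at least 2-fold lower and 1 higher (31.8% and 4.55%, against 14.4% and 6.26%). Among the 19 that passed in both groups there were 4 and 1 (21.1% and 5.26%, against 9.1% and 5.94% of all such genes). *Ddx58*, the RNA sensor RIG-I, had 34.9, 35.5 and 33.8 CPM in KO and 9.04, 9.38 and 9.33 CPM in KO_PAPC, and *Bst2*, which tethers enveloped viruses, had 53.7, 56.4 and 56.1 CPM and 142, 152 and 142 CPM. They moved in opposite directions by -1.91 and 1.39 log2 units.

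Genes of lysosome and autophagy were lower in 29 of 39 cases and higher in 8 (74.4% and 20.5%, against 42.2% and 39.6% of tested genes), with a median of -0.31. Large falls were no more frequent than among all tested genes, with 5 at least 2-fold lower and 1 higher (12.8% and 2.56%, against 14.4% and 6.26%). *Ulk1*, the kinase that starts autophagy, had 314, 306 and 309 CPM in KO and 76.8, 87.6 and 85.3 CPM in KO_PAPC. *Sqstm1*, the cargo receptor p62, had 562, 568 and 554 CPM and 251, 260.3 and 248 CPM. *Neu1*, a lysosomal sialidase, rose from 56.6 ± 1.51 to 129 ± 3.9 CPM, and *Lamp1*, a lysosomal membrane protein, changed by -0.10 ± 0.0225 log2 units. In the apoptosis list 2 of 26 genes were at least 2-fold higher and 2 lower (7.69% each, against 6.26% and 14.4%), and *Hrk*, an activator of apoptosis, fell from 5.84 ± 0.236 to 1.47 ± 0.232 CPM. Its median of -0.09 stood at 0.11 relative to chromosome medians.

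No tested relative of *Tnfaip2* was called at least 2-fold changed by edgeR. Of 12 tested genes of the exocyst and the *Tnfaip2* family 6 were higher and 6 lower, and at least 2-fold only *Tnfaip2* itself, which passed the filter only in KO_PAPC, was higher and 0 genes were lower by edgeR. *Exoc3* rose from 48 ± 0.677 to 68.2 ± 1.59 CPM and *Exoc4* fell from 139 ± 0.682 to 85.2 ± 0.635 CPM. Of 6 tested caveolin and cavin genes, *Cavin1*, a coat protein of caveolae, rose from 8.66 ± 1.21 to 21.9 ± 1.14 CPM. *Cav1* had too few reads to be tested, at 2, 3 and 0 counts in KO and 11, 9 and 12 counts in KO_PAPC.

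**Figure D5:**
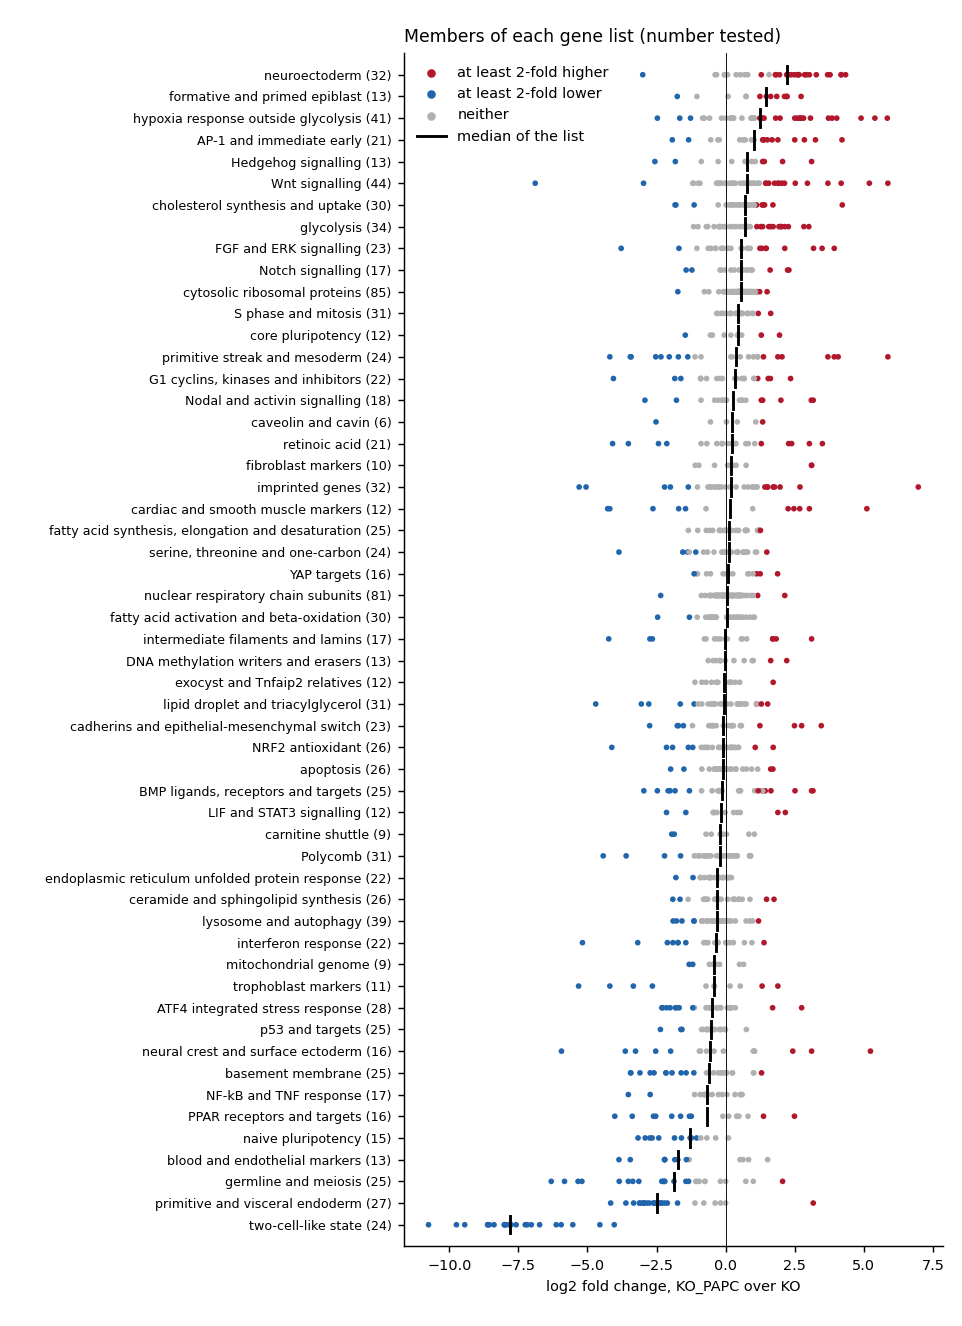
Log2 fold change (KO_PAPC over KO) of every tested member of the 54 gene lists, ordered by list median (black bar), with members at least 2-fold higher in red, at least 2-fold lower in blue and others in grey. Neuroectoderm has the highest plotted median (2.22, or 1.05 for the 20 members that passed the filter in both groups) and the two-cell-like state the lowest (-7.81, a fitted value that depends on the prior count, with all members having passed only in KO).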

How the data were processed

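RNA of EBs was sequenced by the authors as TruSeq RNA v2 libraries, a kit that does not mark strand, with 51-cycle single-end reads. Per the methods and the submitters' processing notes, reads were demultiplexed with bcl2fastq 2.20.0.422, mapped with STAR 2.7.2b to GRCm38 with Ensembl 99 annotation and counted with featureCounts 1.6.5. The methods state the omission of multi-mapping and multi-overlapping reads for a planarian data set to which they refer, and the settings for EBs are otherwise not given in the sources used here. The deposited values were whole-number read counts per gene, not normalised, and replicates were not pooled. Because the kit does not mark strand, reads of a gene and an antisense or overlapping gene cannot be told apart. No batch was given in the labels. The number of unused columns of per-sample values was 0.

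Symbols and positions came from GENCODE M21 by Ensembl ID. A total of 241 IDs had no match and held 0.00253% to 0.00425% of the counts.

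Genes were tested with edgeR 4.0.16 in R 4.3.3 on the 6 libraries (TMM, filterByExpr, glmQLFit and glmQLFTest, Benjamini-Hochberg), and with glmTreat on the same fit for changes beyond 2-fold. The study used DESeq2, which served as an alternative (1.42.0). Normalised CPM are counts over TMM-scaled library sizes, log2 fold changes are fitted values, and each standard error is the size of the log2 fold change over the square root of its F statistic. The filter asked for about 0.358 CPM (10 counts) in 3 libraries. At these depths 3 counts equal 0.0979 to 0.116 CPM. On simulated counts for 55471 genes with 200 changed, the test recovered 81% of 1.5-fold and 100% of 4-fold changes with 11 false calls. The 2-fold test recovered 97% of 4-fold changes there with 0 false calls. In the data 81.8% of the 17167 tested genes were called. The number of false calls at such a share was not tested. All pairs of replicates differed by more than sampling noise in a chi-square test. The alternatives were DESeq2, RLE and library-total scaling, no filter and a mean of at least 10 counts, a replicate block, leaving out each library, and values relative to the chromosome median.

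Genes were named by a rule: *Tnfaip2*, then the 15 largest rises and falls at least 2-fold among protein-coding and long noncoding genes that reached 10 CPM on average in the higher group without overlap, then the 2 largest called rises and falls at 5 CPM or more in each list, and marker genes set for each list. Some genes that the rule names are not reported here. Genes outside the rule are said to be chosen after their values were seen. The members and the 54 lists were chosen with earlier results of these data known, so counts over lists are descriptions. Promoters were taken from RefSeq windows (GRCm38.p6) and the guide from the study's oligonucleotide table.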

Additional observations from a re-analysis of the deposited data

How the results depend on the processing

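The number of genes called stayed within 1.5 times in all 12 alternatives fitted. It ranged from 13785 to 14137 when each library was left out in turn and was 15649 without the filter, and the genes changed at least 2-fold ranged from 3507 to 3626 and were 4230 without the filter and 2648 with DESeq2. Same-numbered replicates did not deviate together (correlations of -0.0739, -0.0246 and -0.0379), so the numbers share no more than a label. A replicate block called 13822 genes, 3491 of them at least 2-fold.

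List medians close to 0 turned sign. Library totals gave -0.03 for cardiac and smooth muscle markers, -0.09 for YAP targets, -0.12 for beta-oxidation, -0.03 for fatty acid synthesis, -0.10 for the respiratory chain and -0.04 for one-carbon genes. Relative to chromosome medians LIF stood at 0.04, intermediate filaments at 0.07, beta-oxidation at -0.12, DNA methylation at 0.29 and apoptosis at 0.11. DESeq2 gave 0.01 for cadherins and 0.47 for BMP, and no filter gave 0.02 for cadherins, 0.02 for intermediate filaments, 0.49 for BMP and 0.02 for DNA methylation. Leaving out libraries moved cadherins from -0.22 to 0.02, intermediate filaments from -0.02 to 0.01 and DNA methylation from -0.02 to 0.04, with the sign turned without KO replicate 1 for the first and without KO_PAPC replicate 1 for the others.

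Single genes turned as well. Library totals gave -0.08 for *Fgf4*, -0.01 for *Fasn* and -0.01 for *Pdia6*. Relative to chromosome medians *Pdia6* stood at -0.16, *Axin2* at 0.04, *Trp53* at 0.18, *Birc5* at 0.05, *Cdc6* at 0.06, *Exoc8* at -0.08 and *Dnmt1* at 0.14, and *Dnmt1* stood at 0.02 without the filter and between -0.02 and 0.04 with libraries left out. The cause was not tested. Over the 310 named genes 3977 alternative values kept direction and call, 10 lost and 3 gained the call. Genes under about 3 counts in a library cannot be measured at this depth.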
